A study of Mus musculus with 23 samples.

Results

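Dazl, Hsf2bp, Naa11, Stk31, Syce2, Sycp2, Tdrd6 and Tdrkh are 8 mouse genes of the germ line whose open chromatin was described here in 3T3-L1 cells, an established mouse line of preadipocytes that can become fat cells. They were chosen by name, from a list of germline genes, wherever the authors had given one of these names to a peak of open chromatin. By this choice, all 8 had at least 1 such peak. Together they held 15 of the 32094 peaks that carried a gene name, with 10 of 12268 on day -2, 2 of 9692 on day -1 and 3 of 10134 on day 0.

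Cells were transfected on day -3 with 50 nM of a pool of siRNAs against mouse Kdm5c, or with the same dose of non-targeting siRNA (scramble). Nuclei were taken after 24 hours (day -2), 48 hours (day -1) or 72 hours (day 0) for ATAC-seq, which reads out accessible DNA by where a transposase can insert adapters. Each arm had 4 libraries on each day, except that Kdm5c siRNA on day 0 had 3, with the numbers 1, 2 and 4. All 23 libraries came from this single line. Nothing in the labels tells whether replicates were separate cultures, so each p-value reflects no more than the spread between libraries, and that spread may be technical. An siRNA acts on mRNA, transcript levels were not analysed here, and the Kdm5c gene's own peak, which does not check the knockdown, had log2 fold changes of -0.28, 0.10 and 0.14 on days -2, -1 and 0.

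Germline genes carry out meiosis, protect the genome from transposons through small piRNAs and shape eggs and sperm, and in somatic cells most are kept silent. Their silencing is known to involve DNA methylation of CpG-rich promoters and repressor complexes that contain E2f6, Mga and Max, which bind E2F sites and E-boxes. Kdm5c removes methyl groups from lysine 4 of histone H3, a mark of active promoters, and in mouse neurons and embryonic stem cells it is known to hold down germline genes.

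A library held between 1816082 and 3345583 counts in nuclear peaks on day -2. On day -1 it held between 781309 and 1446979, and on day 0 between 1088968 and 2525925. Mitochondrial peaks took 56.4% to 70.0% of counts in Kdm5c siRNA libraries and 70.4% to 76.3% in scramble libraries on day -2. These shares were 87.6% to 92.6% and 90.9% to 93.2% on day -1, and 78.8% to 86.8% and 87.5% to 91.4% on day 0, with Kdm5c siRNA given first. Of 13 preadipocyte and fibroblast markers, 10, 9 and 9 had a named peak on days -2, -1 and 0, among them Pparg, Cebpb, Pdgfrb and Col1a1 on all 3 days. Pdgfra, Cd34 and Fn1 had none. Among markers of other cell types, named peaks were found for 2, 1 and 1 of 5 endothelial markers on days -2, -1 and 0 (Kdr on all 3 days), 2, 0 and 1 of 5 blood markers (Cd14 and Csf1r), 1, 0 and 0 of 5 epithelial markers (Krt8) and 3, 0 and 0 of 4 muscle markers. Of 6 germ cell markers, among them Dazl itself, 3, 2 and 3 had a named peak, with Gfra1 on all 3 days, while Ddx4 and Sycp3 had none. A named peak does not show expression, and the part of other cell types was not tested.

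Sequence upstream of 4 of the genes is printed here, whether or not it lies inside a peak. RefSeq promoter windows of GRCm38.p6, 250 bases before to 50 bases after a start, matched 7 of the 8 genes with 9 windows. Each line gives bases before the start, read 5′ to 3′ on the gene's strand, with capitals marking 1 motif. Tdrkh (chr3:94412994-94413242, plus strand) is shown because its window lay inside its peak on all 3 days, with CCAAT on the other strand in capitals. Stk31 (chr6:49395289-49395505, plus strand) has its E-box, CACGTG, in capitals. Naa11 (chr5:97392331-97392580, minus strand) has its E2F motif, TCCCGC, in capitals, and Dazl (chr17:50293621-50293870, minus strand) has its cAMP-response motif, TGACGT, in capitals on the other strand. The printed Naa11 stretch overlaps neither Naa11 peak, 5:97391889-97392151 on day -2 and 5:97392128-97392289 on day 0.
Tdrkh: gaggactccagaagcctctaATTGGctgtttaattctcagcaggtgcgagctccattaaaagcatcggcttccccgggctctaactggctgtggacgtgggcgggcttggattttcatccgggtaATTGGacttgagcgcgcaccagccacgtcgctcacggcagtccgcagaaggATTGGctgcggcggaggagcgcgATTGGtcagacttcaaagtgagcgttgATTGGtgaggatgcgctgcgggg
Stk31: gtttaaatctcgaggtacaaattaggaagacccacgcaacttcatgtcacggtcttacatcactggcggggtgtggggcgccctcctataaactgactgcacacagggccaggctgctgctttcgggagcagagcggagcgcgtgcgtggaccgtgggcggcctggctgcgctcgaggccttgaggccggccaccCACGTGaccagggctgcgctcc
Naa11: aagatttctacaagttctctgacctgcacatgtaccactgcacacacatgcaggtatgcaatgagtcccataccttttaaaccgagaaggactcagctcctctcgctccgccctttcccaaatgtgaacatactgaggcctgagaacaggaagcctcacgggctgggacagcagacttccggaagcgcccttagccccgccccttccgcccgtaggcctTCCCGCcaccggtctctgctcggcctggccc
Dazl: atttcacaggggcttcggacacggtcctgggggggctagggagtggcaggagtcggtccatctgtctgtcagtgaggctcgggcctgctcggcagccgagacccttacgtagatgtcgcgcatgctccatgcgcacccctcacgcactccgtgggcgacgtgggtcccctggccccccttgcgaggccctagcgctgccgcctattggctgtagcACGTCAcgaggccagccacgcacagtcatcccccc

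The promoters of these genes were mostly rich in CpG. Their median ratio of observed to expected CpG was 0.795, against 0.384 over 32851 promoters, and 8 of the 9 windows lay above that overall median. Tdrkh had 0.96, Hsf2bp 0.93, Dazl 0.80 and Naa11 0.66. Stk31 had 0.91 and 0.75 in its 2 windows, and Syce2 0.70 and 0.96. Sycp2 was the exception, at 0.36. The median GC content was 60.7%, against 52.7% over all promoters. These genes were chosen for having a named peak, while all promoters include those of genes without one. The comparison thus cannot show whether CpG richness is particular to germline genes.

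Each motif was searched on both strands, and no 2 matches overlapped in these windows. The E2F motif TCCCGC stood in 4 of the 9 windows, of 3 genes (Hsf2bp, Naa11 and both windows of Syce2), against 20.0% of all promoters. The E-box CACGTG stood in 3 windows, of Stk31 and Syce2, against 7.15%. TGACGT stood in Dazl alone, against 7.51%. CCAAT stood in Dazl and, 5 times, in Tdrkh, against 37.4% of all promoters with any match and 0.271% with at least 5. Windows of the same gene overlap and can share a match, and CCAAT was added after the letters of Tdrkh had been seen. A match is not evidence that a factor binds, and whether matches lay inside a peak was not counted. As for CpG, all promoters include those of genes without a named peak.

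Most of these peaks sat at or beside a transcription start. Of the 13 peaks of genes with a promoter window, 8 covered a start, by the RefSeq starts of GRCm38.p6. Tdrkh, which encodes a mitochondrial Tudor protein that takes part in trimming piRNAs, had the widest peaks. They were 3:94412797-94413592 on day -2, 3:94412947-94413569 on day -1 and 3:94412796-94413498 on day 0, and ran from position -447 to 348, -297 to 325 and -448 to 254 relative to the start, where negative positions lie before it. A long non-coding RNA gene on the opposite strand, 1700040D17Rik, starts 289 bases from the Tdrkh start and inside these peaks, so its accessibility and that of Tdrkh cannot be told apart.

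**Figure D1:**
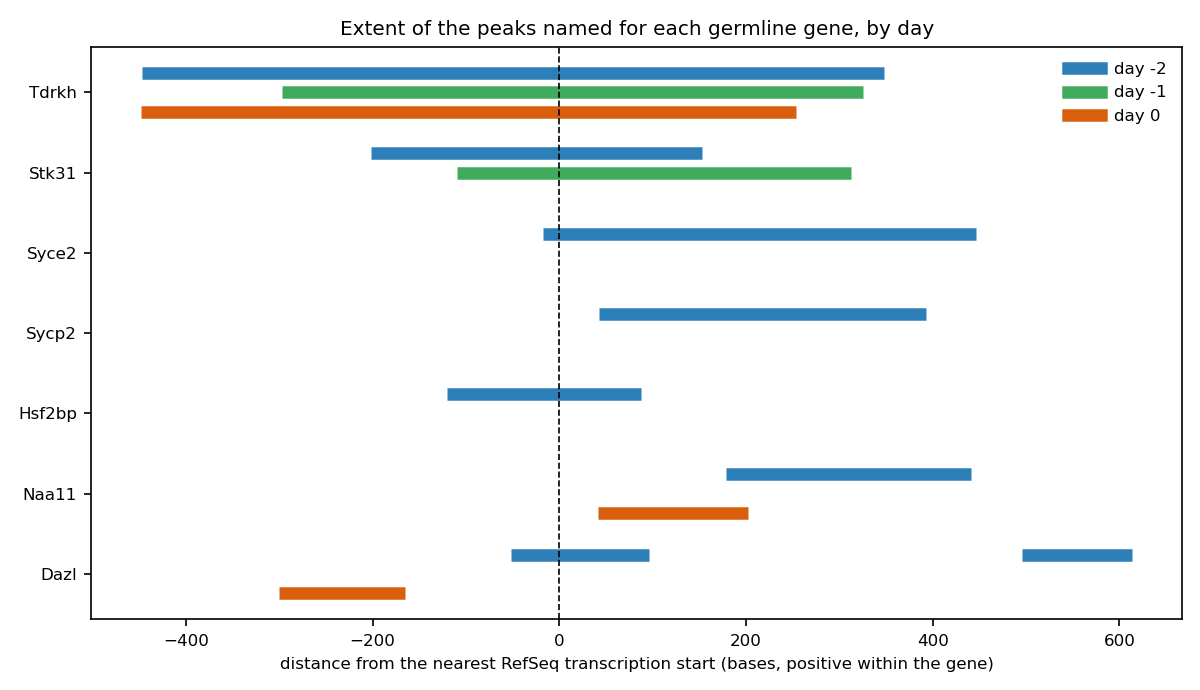
Position of the peaks of 7 germline genes relative to the nearest transcription start of the gene in RefSeq GRCm38.p6, in bases along the gene's strand, with each bar spanning 1 peak and its colour giving the day. The Tdrkh bars cover the start on all 3 days, while the Dazl bars of days -2 and 0 do not overlap each other.

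The 3 meiosis genes had a single peak each, on day -2. Syce2, whose product belongs to the central element of the synaptonemal complex, had a peak at 8:84872241-84872704 that ran from position -17 to 446. Sycp2, which encodes a protein of the lateral element of that complex, had one at 2:178407265-178407615, inside the gene at positions 43 to 393. Hsf2bp, whose product brings recombination proteins to meiotic breaks, had one at 17:32034420-32034628, from position -120 to 88.

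Dazl encodes an RNA-binding protein needed for germ cell formation, and its 3 peaks lay at different places. On day -2 they were 17:50293524-50293672, over the start at positions -52 to 96, and 17:50293006-50293124, inside the gene at positions 496 to 614. On day 0 the peak was 17:50293785-50293920, at positions -300 to -165. Stk31, a Tudor-domain kinase gene of germ cells, had peaks over the start at 6:49395337-49395692 (positions -202 to 153) on day -2 and 6:49395429-49395851 (positions -110 to 312) on day -1.

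Naa11, a germ-cell copy of the N-terminal acetyltransferase gene Naa10, had peaks at 5:97391889-97392151 on day -2 and 5:97392128-97392289 on day 0. Both lay inside the gene, at positions 179 to 441 and 41 to 202, and shared 24 bases. Because Naa10 has a related sequence and how reads with several matches were treated is unknown from the sources used here, counts inside Naa11 are uncertain. The start of the long non-coding RNA gene 4930467D21Rik lies 87 bases from the Naa11 start on the opposite strand. Tdrd6, whose Tudor protein belongs to the chromatoid body of spermatids, had 2 peaks on day -2, 17:43629952-43630032 and 17:43630260-43630384. Both lay inside the gene, at most 1894 bases from the end of its span with the higher coordinate.

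The number of these genes with a peak differed between days, and depth differed with it. All 8 had a named peak on day -2, only Stk31 and Tdrkh on day -1, and only Dazl, Naa11 and Tdrkh on day 0. Tdrkh alone had one on all 3 days, and 4 genes, Hsf2bp, Syce2, Sycp2 and Tdrd6, had one on day -2 only. Day -2 also had the most peaks of any kind, with or without a gene name (84019, against 31970 on day -1 and 37054 on day 0). The number of genes of any kind with a named peak changed less, at 11026, 8998 and 9366 on days -2, -1 and 0. Nuclear counts per library were also highest on day -2, with medians of 2195126, 1076489 and 1274689 on days -2, -1 and 0. The part of depth in the number of named peaks was not tested, and a missing peak says that none was called, not that the site was closed.

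Weak day -2 peaks seldom overlapped a peak of a later day. Among day -2 gene peaks, 73.8% overlapped a day -1 peak and 76.7% a day 0 peak by at least 1 base, but among the 3067 with the lowest counts these shares were 14.6% and 20.5%. Those 3067 held 8 of the 10 day -2 peaks of the germline genes, of which 1 (Stk31) overlapped a day -1 peak and 1 (Naa11) a day 0 peak. Syce2 stood among the next 3067, of which 81.1% overlapped a day -1 peak and 86.6% a day 0 peak, yet its site had no peak on either day. Tdrkh stood among the 3067 above these, of which 99.6% overlapped a peak of day -1 and 99.6% a peak of day 0. Weak peaks of the later days overlapped another day's peak more often. Of the 2423 day -1 gene peaks with the lowest counts, which include that of Stk31, 83.4% overlapped a day -2 peak and 72.0% a day 0 peak. Of the 2534 such peaks of day 0, which include those of Dazl and Naa11, 76.1% overlapped a day -2 peak and 52.7% a day -1 peak. These shares describe the tables and carry no test.

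**Figure D2:**
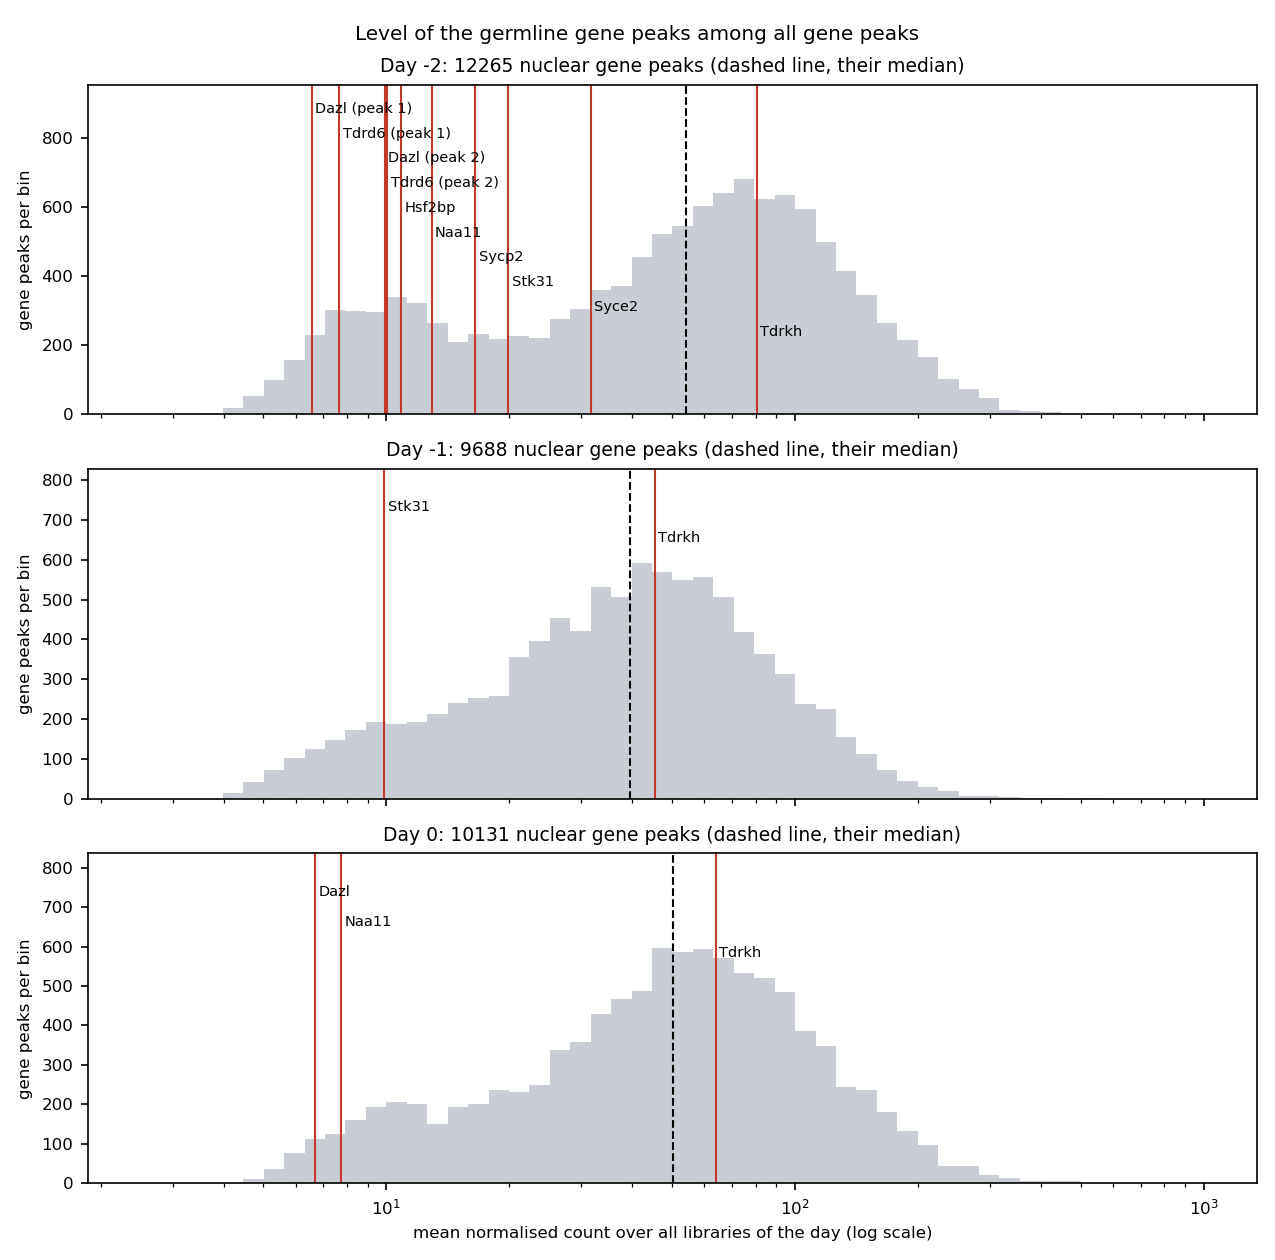
Mean normalised count of each germline gene peak (marked lines) over the histogram of all nuclear gene peaks of the same day, on a logarithmic axis of normalised counts, where peak 1 of Dazl and of Tdrd6 is the one at the lower coordinate. Tdrkh lies to the right of the median on all 3 days, at 80.7 on day -2, 45.3 on day -1 and 64.0 on day 0, and every other marked peak lies to the left of it.

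Levels are given as normalised counts, that is raw counts divided by the library's effective size relative to the mean of its day, and each day was scaled on its own. By mean normalised count over all libraries of a day, Tdrkh ranked 3933 of 12268 gene peaks on day -2, 4138 of 9692 on day -1 and 3823 of 10134 on day 0. It exceeded 67.9%, 57.3% and 62.3% of gene peaks. The median gene peak had 54.2, 39.5 and 50.1 normalised counts on the 3 days.

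Every other peak of the 8 genes was below that median. On day -2, Syce2 ranked 8193, Stk31 9235, Sycp2 9592, Naa11 10093 and Hsf2bp 10573, with mean levels of 31.6, 19.9, 16.5, 12.9 and 10.8 normalised counts. The Tdrd6 peaks ranked 10790 and 11496, and the Dazl peaks 10833 at the start and 11863 inside the gene, with 10.1, 7.66, 9.90 and 6.57 normalised counts. On day -1 Stk31 ranked 8831, at 9.88 normalised counts, and on day 0 Naa11 ranked 9799 and Dazl 9959, at 7.75 and 6.68 normalised counts. The Dazl peak of day 0 thus exceeded 1.73% of that day's gene peaks.

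Per kilobase of peak, a scale that depends on the width called for each peak, the order on day -2 changed. Tdrkh remained first, at 101 ± 26.4 normalised counts per kilobase (SD, n = 8 libraries of both arms), followed by the Tdrd6 peaks at 95.8 ± 58.2 and 81.1 ± 23.5. Syce2 came next at 68.4 ± 11.5, then the Dazl peak over the start at 66.9 ± 47.2. Stk31 (56.0 ± 24.99), the other Dazl peak (55.7 ± 40.2), Hsf2bp (52.1 ± 24.1), Naa11 (49.2 ± 35.3) and Sycp2 (47.1 ± 20.9) closed the order. No pair of neighbours in this order was farther apart than the larger of their SDs. The Tdrd6 peaks are short, 80 and 124 bases, and exceeded 63.0% and 46.4% of gene peaks per kilobase. Tdrkh exceeded 68.2%, 63.3% and 66.2% on days -2, -1 and 0, while Stk31 on day -1 exceeded 0.660%.

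No difference between Kdm5c siRNA and scramble libraries passed the test at the 10 of 15 peaks that could be tested. In bulk nuclei, fewer cells with an open site and less opening per cell cannot be told apart. On day -2, 8 of the 10 peaks, 1 of each gene, had enough counts to be tested, and 0 were called by edgeR's quasi-likelihood test at a Benjamini-Hochberg adjusted p under 0.05, where 0.00404% of 49455 tested peaks were called. On day -1, 1 of 2 was tested and 0 called, with 0% of 23304 called in all. On day 0, 1 of 3 was tested and 0 called, with 0.00352% of 28398. None of the tested peaks had an unadjusted p under 0.05, a level that 4.63%, 5.38% and 5.99% of all tested peaks reached on days -2, -1 and 0, and DESeq2 called none of them. Total-count scaling, which moves the median of all peaks by 0.44, 0.38 and 0.56 on the log2 scale, called Tdrkh on day -2 and reversed the sign at 5 of the 10 tested peaks. On day -2 it called 1224 of 49455 peaks in all, each with a log2 fold change above 0.

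Tdrkh had the most counts and the narrowest intervals. On day -2 it had 109, 73.9, 115 and 58.7 normalised counts in Kdm5c siRNA replicates 1 to 4, and 58.2, 76.1, 76.0 and 78.0 in scramble replicates 1 to 4. The highest values were in Kdm5c siRNA replicates 1 and 3, and the arms overlapped. Means were 89.3 ± 27.4 in Kdm5c siRNA libraries and 72.1 ± 9.30 in scramble libraries (SD, n = 4 each), and the log2 fold change was 0.30 (SE 0.18, 95% interval -0.05 to 0.66, edgeR adjusted p = 0.98).

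On day -1 the Tdrkh peak had 46.1, 49.9, 40.5 and 42.0 normalised counts with Kdm5c siRNA, against 39.3, 25.1, 67.2 and 52.4 with scramble. All Kdm5c siRNA values lay within the range of the scramble values. The log2 fold change was -0.01 (SE 0.22, 95% interval -0.46 to 0.43, edgeR adjusted p = 0.998). On day 0 it had 76.4, 59.5 and 62.1 with Kdm5c siRNA replicates 1, 2 and 4, against 83.2, 49.5, 54.0 and 63.0 with scramble. The arms overlapped again, and the log2 fold change was 0.06 (SE 0.20, 95% interval -0.33 to 0.46, edgeR adjusted p = 0.987).

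No difference between days in the siRNA effect at Tdrkh passed the test. As an interaction term in edgeR, the log2 difference of effects was -0.34 (SE 0.29, adjusted p = 0.954) for day -1 minus day -2, 0.05 (SE 0.30, adjusted p = 0.999) for day 0 minus day -1, and -0.26 (SE 0.27, adjusted p = 0.879) for day 0 minus day -2. In these 3 comparisons 0% of 18909, 16912 and 18481 matched peaks were called. At Stk31 the difference for day -1 minus day -2 was -0.60 (SE 0.66, adjusted p = 0.973).

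**Figure D3:**
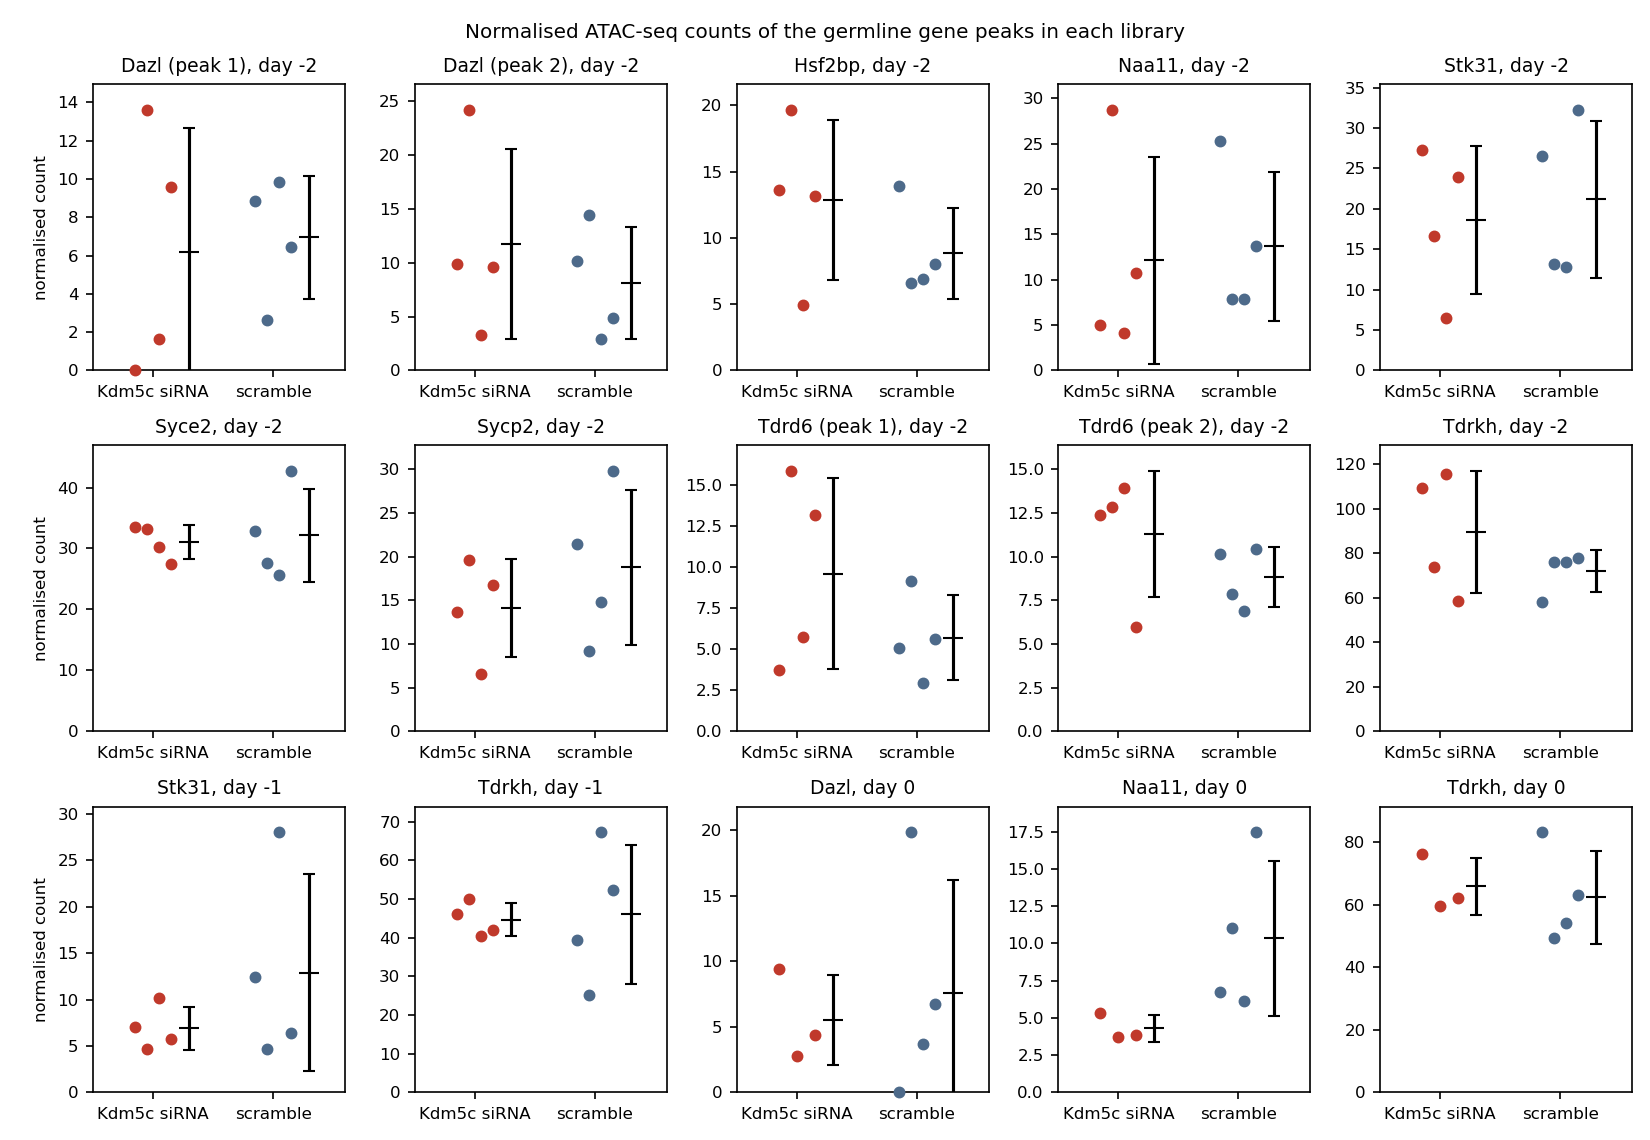
Normalised counts of each germline gene peak in every library, with Kdm5c siRNA to the left of scramble in each panel, points for libraries, and lines for the mean and SD of the arm. The arms share part of their range in every panel but Naa11 on day 0, where Kdm5c siRNA libraries had 3.72 to 5.36 and scramble libraries 6.14 to 17.4 normalised counts; SD lines stop at 0.

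Among the meiosis genes, Syce2 was the most even. It had 33.5, 33.2, 30.3 and 27.5 normalised counts in the Kdm5c siRNA libraries, against 32.9, 27.5, 25.6 and 42.6 in the scramble libraries. The arms covered much the same range. The means were 31.1 ± 2.79 with Kdm5c siRNA and 32.2 ± 7.61 with scramble (SD, n = 4 each), and the log2 fold change was -0.06 (SE 0.28, 95% interval -0.61 to 0.49, edgeR adjusted p = 0.996).

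Sycp2 had 13.6, 19.6, 6.54 and 16.8 normalised counts with Kdm5c siRNA, against 21.5, 9.18, 14.8 and 29.8 with scramble. Scramble replicate 4 was highest and Kdm5c siRNA replicate 3 lowest, with the other libraries mixed between them. Its log2 fold change was -0.44 (SE 0.43, 95% interval -1.29 to 0.41, edgeR adjusted p = 0.98). Hsf2bp had 13.6, 19.6, 4.91 and 13.2 with Kdm5c siRNA, against 13.9, 6.56, 6.91 and 8.04 with scramble. Kdm5c siRNA replicate 2 was highest and replicate 3 lowest, so the arms overlapped, and the log2 fold change was 0.54 (SE 0.56, 95% interval -0.56 to 1.64, edgeR adjusted p = 0.983).

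Dazl at its start had 9.92, 24.1, 3.27 and 9.58 normalised counts on day -2 with Kdm5c siRNA, against 10.1, 14.4, 2.96 and 4.83 with scramble. Replicate 2 was highest and replicate 3 lowest in both arms, which overlapped. The log2 fold change was 0.61 (SE 0.59, 95% interval -0.56 to 1.78, edgeR adjusted p = 0.98). The peak inside Dazl had 0, 13.6, 1.64 and 9.58 with Kdm5c siRNA, against 8.86, 2.62, 9.87 and 6.43 with scramble, and the day 0 peak had 9.38, 2.79 and 4.39, against 0, 19.8, 3.69 and 6.71. Both were too low to be tested, each held a library at 0, and their arms overlapped.

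Stk31 had 27.3, 16.6, 6.54 and 23.9 normalised counts on day -2 with Kdm5c siRNA, against 26.6, 13.1, 12.8 and 32.2 with scramble. Its arms overlapped, and the log2 fold change was -0.25 (SE 0.39, 95% interval -1.01 to 0.52, edgeR adjusted p = 0.989). On day -1 it had 7.01, 4.64, 10.1 and 5.79 with Kdm5c siRNA, against 12.5, 4.65, 28.0 and 6.41 with scramble. That peak was not tested, and its scramble mean of 12.9 ± 10.6, against 6.89 ± 2.36 with Kdm5c siRNA (SD, n = 4 each), rested mostly on scramble replicate 3.

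Naa11 had 4.96, 28.7, 4.09 and 10.8 normalised counts on day -2 with Kdm5c siRNA, against 25.3, 7.87, 7.89 and 13.7 with scramble. Each arm had 1 high library, Kdm5c siRNA replicate 2 and scramble replicate 1, and the arms overlapped. The log2 fold change was -0.12 (SE 0.51, 95% interval -1.13 to 0.89, edgeR adjusted p = 0.996), and it was -1.06, uncalled, without Kdm5c siRNA replicate 2.

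Naa11 on day 0 was the 1 peak of the 15 whose arms did not overlap, a pattern found at 2.61%, 3.15% and 6.17% of all peaks on days -2, -1 and 0. It had 5.36, 3.72 and 3.85 normalised counts with Kdm5c siRNA, against 6.74, 11.01, 6.14 and 17.4 with scramble. Means were 4.31 ± 0.913 in Kdm5c siRNA libraries (SD, n = 3) and 10.3 ± 5.21 in scramble libraries (SD, n = 4), from a mean of 7 raw counts per library. The peak was below the count filter. Without that filter the log2 fold change was -1.23 (SE 0.80, 95% interval -2.80 to 0.33, edgeR adjusted p = 0.898).

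Tdrd6 at 17:43630260-43630384 had 12.4, 12.8, 13.9 and 5.99 normalised counts with Kdm5c siRNA, against 10.1, 7.87, 6.91 and 10.5 with scramble. Kdm5c siRNA replicates 1 to 3 were above every scramble library and replicate 4 was below them all. The log2 fold change was 0.36 (SE 0.57, 95% interval -0.76 to 1.48, edgeR adjusted p = 0.989). The shorter Tdrd6 peak had 3.72, 15.8, 5.73 and 13.2 with Kdm5c siRNA, against 5.06, 9.18, 2.96 and 5.63 with scramble, was not tested, and its arms overlapped.

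**Figure D4:**
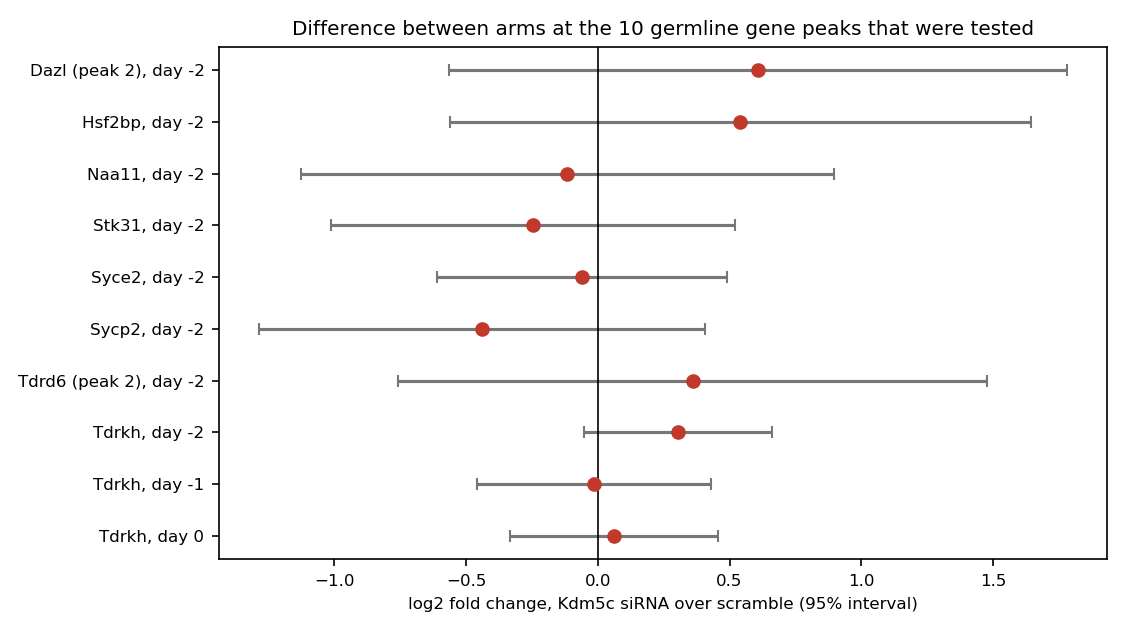
Log2 fold change of Kdm5c siRNA over scramble with its 95% interval at the 10 germline gene peaks that were tested by edgeR, 8 on day -2 and Tdrkh on days -1 and 0. Every interval includes 0, from -0.05 to 0.66 at Tdrkh on day -2 to -0.56 to 1.78 at Dazl on day -2.

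Some libraries were high or low at several of the weak day -2 peaks together. Over the 9 peaks other than Tdrkh, normalised counts summed to 119, 184, 76.9 and 131 in Kdm5c siRNA replicates 1 to 4, and to 154, 98.4, 90.8 and 154 in scramble replicates 1 to 4. Kdm5c siRNA replicate 2 was the highest of its arm at 6 of these 9 peaks and replicate 3 the lowest at 5. The same libraries stood out over the 3067 gene peaks with the lowest counts, where replicate 2 was highest of its arm at 51.3% and replicate 3 lowest at 40.2%. These peaks held 1.45%, 1.85%, 1.20% and 1.38% of nuclear counts in Kdm5c siRNA replicates 1 to 4, against 1.38%, 1.27%, 1.19% and 1.42% in scramble replicates 1 to 4. Of the 8 tested peaks, 4 had a log2 fold change above 0 and 4 below. Their median was 0.12, beside 0.03 over 10839 gene peaks tested.

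Some other germline genes also had a named peak. The 8 genes were chosen for having one, so their share cannot be compared with that of other genes. Genes of any kind with a named peak numbered 11026, 8998 and 9366 on days -2, -1 and 0, beside 27025 genes with a RefSeq promoter window. Of 85 further germline names, 1 gene standing under both its names, Terb1 and Ccdc79, 24 had a named peak on day -2, 8 on day -1 and 11 on day 0. By class, 12, 6 and 7 of 39 meiosis genes, 5, 1 and 3 of 26 piRNA and germ granule genes, and 7, 1 and 1 of 20 other germ cell genes had one on days -2, -1 and 0. Taking each gene's highest peak, 8 of the 24, 5 of the 8 and 6 of the 11 lay above the median gene peak of the day. The 6 with a peak on all 3 days were Msh4 and Msh5, a pair of meiotic mismatch repair homologues, the transcription factor gene Mybl1, the histone methyltransferase gene Prdm9 that sets recombination sites, the cohesin gene Stag3 and Exd1, a piRNA pathway gene. Of 15, 7 and 9 genes tested on days -2, -1 and 0, edgeR called 0 in either direction. On each day 1 of them had an unadjusted edgeR p under 0.05. Of all tested peaks, 0.00404%, 0% and 0.00352% were called, and 4.63%, 5.38% and 5.99% reached that unadjusted level. Median log2 fold changes were 0.002, 0.11 and 0.01 for the 10, 6 and 7 tested meiosis genes of days -2, -1 and 0. For piRNA and germ granule genes they were 0.04, 0.26 and -0.34, from only 3, 1 and 2 tested genes. Over all gene peaks tested they were 0.03, -0.001 and -0.01. The 2 other germ cell genes tested, both on day -2, had a median of -0.03.

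Stag3, a cohesin subunit of meiosis, was the gene with an unadjusted p under 0.05 on days -1 and 0. At 5:138279764-138280428 on day -1 it had 84.1, 75.4, 60.7 and 76.7 normalised counts with Kdm5c siRNA, against 47.0, 54.9, 42.0 and 63.0 with scramble. Only Kdm5c siRNA replicate 3 fell below the highest scramble library. The log2 fold change was 0.51 (SE 0.18, edgeR adjusted p = 0.856). On day 0 it had 96.5, 87.4 and 90.1 with Kdm5c siRNA, against 67.4, 60.5, 55.3 and 73.8 with scramble. There the arms did not overlap, a pattern found at 6.17% of all peaks of that day. The log2 fold change was 0.50 (SE 0.19, edgeR adjusted p = 0.712). Stag3 was named because its p was among the smallest of the list genes. On day -2 it had 62.0, 100.3, 72.8 and 50.3 with Kdm5c siRNA, against 65.8, 70.8, 79.9 and 72.4 with scramble, for a log2 fold change near 0 at 0.01 (SE 0.19, edgeR adjusted p = 0.999). No day passed. As interaction terms, the log2 difference of effects at Stag3 was 0.47 (SE 0.26, edgeR adjusted p = 0.945) for day -1 minus day -2, -0.03 (SE 0.26, edgeR adjusted p = 0.999) for day 0 minus day -1 and 0.47 (SE 0.26, edgeR adjusted p = 0.735) for day 0 minus day -2.

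Dmc1, the meiotic recombinase gene, was the gene with an unadjusted p under 0.05 on day -2. At 15:79605060-79605459 it had 17.4, 35.4, 9.82 and 18.0 normalised counts with Kdm5c siRNA, against 8.86, 5.25, 3.95 and 11.3 with scramble. Kdm5c siRNA replicate 2 was again the highest library, and replicate 3 lay inside the scramble range. The means were 20.1 ± 10.9 with Kdm5c siRNA and 7.33 ± 3.34 with scramble (SD, n = 4 each). The log2 fold change was 1.43 (SE 0.50, edgeR adjusted p = 0.98), and 0.98 without Kdm5c siRNA replicate 2. Total-count scaling called Dmc1 on day -2, as 1 of 1224 peaks called of 49455 tested, all with a log2 fold change above 0.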

How the data were processed

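ATAC-seq was run on 23 libraries of 3T3-L1 cells, which were grouped by siRNA and day from their titles. For each day the authors deposited raw counts of reads per peak, and a second table with normalised signal of peaks that carry a gene name. Within a tolerance of 1e-08, each library's signal was its raw count divided by 1 constant, so only the gene names were taken from it. The build was GRCm38 and the tools were DESeq2 1.24.0, HTSeq 0.9.1, MACS2 2.1.1, Bowtie2 2.2.9 and cutadapt 2.3, per the submitters' processing notes. The sources used here do not give their settings, how libraries were pooled for peak calling, or how duplicates and the transposase offset were handled. Nor do they tell whether peak starts count from 0 or 1, so coordinates are printed as deposited.

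Each day was tested on its own raw counts by quasi-likelihood in edgeR 4.0.16 (R 4.3.3; TMM, filterByExpr, no covariate), with Benjamini-Hochberg adjustment over all tested peaks, and a call below 0.05. Day differences were interaction terms over peaks matched by 50% reciprocal overlap with bedtools 2.31.1. Tables and ranks were made in Python 3.11.15. The tests were also run on simulated counts with changes larger than those estimated here. That run does not show what the tests can detect at weak peaks. Alternatives were RLE factors, total-count scaling, no mitochondrial peaks, no low-count filter, DESeq2 1.42.0, a replicate block and leaving out each library. With 781309 to 3345583 nuclear counts per library, most of these peaks held few counts. The parts of low counts and of spread between libraries in the width of their intervals were not tested.

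The 8 genes, the other lists and the tests were chosen with earlier results of these data known. Named beyond the 8 are list genes with a peak on all 3 days, neighbours within 1 kb and, where a day had no called list gene, the 3 list genes with the smallest p.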

Additional observations from a re-analysis of the deposited data

Results flagged for a closer look

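At the Tdrkh peak on day -2, scramble replicate 1 had 58.2 normalised counts and stood apart from the other 3 scramble libraries, which had 76.0 to 78.0. Its gap to the nearest of them, as a share of the group's range, was 0.896, above the 95% critical value of Dixon's test for 4 samples. It was the only such value among the 27 groups of 4 libraries examined at the germline gene peaks, and chance alone marks about 1 group in 20. Without this library the log2 fold change at Tdrkh on day -2 was 0.20 and was not called; over all 8 libraries left out singly it ran from 0.12 (without Kdm5c siRNA replicate 3) to 0.43.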

How the results depend on the processing

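No germline gene peak was called under RLE factors, without mitochondrial peaks, without the low-count filter, with DESeq2, with the replicate block or with any library left out. On day -2 these settings tested 5 of the 10 peaks without mitochondrial peaks (not those of Dazl, Naa11 and Tdrd6), 10 without the filter, 6 to 9 with a library left out, and 8 otherwise. Total-count scaling, in which mitochondrial reads dominate the totals, called 1 of them on day -2 (Tdrkh, 0.78), 2 other germline genes (Dmc1, 1.91, and Ythdc2, 0.75) and 1224 peaks in all, against 2 by TMM. Under it the sign turned at Naa11 (0.31), Stk31 (0.23), Syce2 (0.40) and Sycp2 (0.020) on day -2, Tdrkh on day -1 (0.38) and Uhrf1 on day 0 (0.13). Calls over all peaks on day -2 numbered 1 with RLE factors, 1 without mitochondrial peaks, 3 without the filter, 0 with DESeq2 and 5 with the replicate block, and 2 to 11 with a library left out. On day 0 they numbered 2, 2, 6, 0 and 0, and 0 to 10, against 1 by TMM; on day -1 the block called 1 and total-count scaling 1, against 0.

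With 1 library left out at a time, log2 fold changes ran from -0.42 to 0.21 for the peak inside Dazl, -1.06 to 0.29 for Naa11, -0.50 to 0.035 for Stk31 and -0.17 to 0.10 for Syce2 on day -2. Tdrkh ran from -0.23 to 0.20 on day -1 and from -0.043 to 0.23 on day 0. The difference between days ran from -0.92 to 0.032 at Stk31 (day -1 minus day -2) and from -0.16 to 0.27 at Tdrkh (day 0 minus day -1), where the other negative values were -0.049, -0.042, -0.030 and -0.013. On day -2 the sign held in each such fit that tested the peak at Dazl over its start (0.30 to 0.99), Hsf2bp (0.23 to 0.80), Sycp2 (-0.68 to -0.13), the longer Tdrd6 peak (0.25 to 0.53) and Tdrkh (0.12 to 0.43). With 50% reciprocal overlap instead of 1 base, 1 day -2 peak rather than 2 matched a day 0 peak, and 1 day 0 peak rather than 2 matched a day -2 peak. The cause of these changes was not tested.

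Equal replicate numbers gave no clear pairing of the samples, and whether they were paired is not settled. Correlations of same-numbered libraries' deviations were -0.039 to 0.155 on day -2, where the 0.155 of replicate 3 was the highest of any pair. They were -0.022 to 0.027 on day -1 and -0.030 to -0.011 on day 0. On the 3 days, 2 of 4, 2 of 4 and 0 of 3 numbers correlated best with their own. With the replicate block, Tdrkh on day -1 had 0.0046, and no other sign changed at these genes. The mean raw count was below 35 at every peak but those of Tdrkh, and a doubling lay inside several intervals.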

Other observations

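Most listed genes of the machinery that silences germline genes had a named peak. Of 25 such genes, Kdm5c itself among them, 20, 18 and 21 had one on days -2, -1 and 0. Genes of any kind with one numbered 11026, 8998 and 9366, beside 27025 genes with a RefSeq promoter window. Of the 25, 18 had one on all 3 days, while Cbx3, Dnmt3b, Ehmt2 and Trim28 had none on any day. The 18 included Mga, Max, L3mbtl2 and Pcgf6, which belong to a Polycomb complex with E2f6. They also included the histone deacetylase genes Hdac1 and Hdac2, the DNA methyltransferase gene Dnmt3a, and Uhrf1. The edgeR test called 0 of the 20, 17 and 20 genes tested on days -2, -1 and 0, and 0 had an unadjusted p under 0.05 on any of them. Over all tested peaks the shares called were 0.00404%, 0% and 0.00352%, and 4.63%, 5.38% and 5.99% reached that unadjusted level. Total-count scaling called 2 of the listed genes on day -2, Hdac2 (0.67) and Dnmt3a (0.73), where it called 1224 of 49455 tested peaks, all upward. Of the listed genes tested by TMM, 15, 11 and 10 had a log2 fold change above 0. Medians were 0.07, 0.11 and 0.01, beside 0.03, -0.001 and -0.01 over all gene peaks tested.

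The list genes with the smallest p after those described above were not called. On day -2, the demethylase gene Kdm1a had 36.3 ± 9.91 normalised counts with Kdm5c siRNA and 25.5 ± 8.85 with scramble (SD, n = 4 each), and its log2 fold change was 0.49 (SE 0.29). Ythdc2, a meiotic RNA helicase gene, had 98.4 ± 2.93 and 78.4 ± 23.6, with Kdm5c siRNA first, and its log2 fold change was 0.30 (SE 0.17). On day -1 Tfdp1, a partner of E2F proteins, had 0.31 (SE 0.19), and Rnf2, a Polycomb ubiquitin ligase gene, had 0.26 (SE 0.16). On day 0 L3mbtl2 had 0.58 (SE 0.34) and Uhrf1 had -0.42 (SE 0.22). Adjusted edgeR p-values were 0.98 for both genes of day -2, 0.928 for both of day -1, 0.881 for L3mbtl2 and 0.841 for Uhrf1.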
